A study of Mus musculus with 24 samples.

Results

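The neurotrophin genes Bdnf and Ntf3 and the receptor genes Ntrk2, Ntrk3 and Ngfr were followed across neurons sorted from the cortex of adult mice. The 5 genes were taken by name from the 36528 genes of the count files, in which each is listed by its NCBI Gene number, and 4 of the 5 were among the 14890 genes that passed the filter on low counts. The study holds 24 bulk RNA-seq libraries, 6 for each of 4 labelled subtypes, namely EXC, PV, SST and VIP. Male libraries number 4 in EXC libraries, 3 in PV, 4 in SST and 2 in VIP, and the rest are female. Live cells that excluded the dye DAPI were sorted by the GFP or tdTomato of a transgenic reporter line. The labels name neither the lines, the promoters that drive the reporters, nor the age in weeks, and give no treatment. Whether the libraries of a subtype come from different animals is not stated, so the p-values refer to the spread between these samples, which may be technical.

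Neurotrophins are secreted proteins that are made as longer precursors and cut to a mature form. BDNF, encoded by Bdnf, binds the receptor tyrosine kinase TrkB, encoded by Ntrk2, and NT-3, encoded by Ntf3, binds mainly TrkC, encoded by Ntrk3. Ngfr encodes p75NTR, a receptor without a kinase domain that binds all mature neurotrophins and, together with sortilin, their precursors. In cortex, BDNF is known mainly as a product of glutamatergic neurons that acts on neighbouring neurons, interneurons included, and Bdnf transcription from some of its promoters follows neuronal activity. Ntrk2 and Ntrk3 each give rise to kinase-bearing and truncated receptors, and astrocytes carry mostly truncated TrkB. Gene-level counts separate neither these receptor forms nor the Bdnf promoters.

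The genes lie, in GRCm38 coordinates from RefSeq, as follows. Bdnf (NCBI Gene 12064) spans chromosome 2 from 109674700 to 109727043. Ntf3 (18205) spans chromosome 6 from 126101412 to 126166772. Ntrk2 (18212) spans chromosome 13 from 58806472 to 59133970, and Ntrk3 (18213) spans chromosome 7 from 78179986 to 78581034. Ngfr (18053) spans chromosome 11 from 95568818 to 95587698. A non-coding RNA gene lies inside Ntrk2 (Gm53063) and another inside Ntrk3 (Gm39038); the strand setting of the counting was not given, so reads of such neighbours may be counted with them.

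RefSeq promoter windows, each from 250 bases before to 50 bases after a transcription start, were found for 4 of the 5 genes, 11 windows in all and 7 of them for Bdnf. They were searched on both strands for the CRE-like letters TCACGTCA, the palindromic CRE TGACGTCA and the E-box CACGTG, a palindrome. The 2 windows of the ligand genes that held a match are shown, because both ligands were highest in EXC; capitals mark the match, and the sequences are 5′ to 3′ on the strand of the gene, from RefSeq GRCm38.p6. The Bdnf window covers chr2:109692186-109692485 on the plus strand, and its match begins at position -38 from the start. The Ntf3 window covers chr6:126166695-126166994 on the minus strand, and its match begins at position -231 from the start.
Bdnf window: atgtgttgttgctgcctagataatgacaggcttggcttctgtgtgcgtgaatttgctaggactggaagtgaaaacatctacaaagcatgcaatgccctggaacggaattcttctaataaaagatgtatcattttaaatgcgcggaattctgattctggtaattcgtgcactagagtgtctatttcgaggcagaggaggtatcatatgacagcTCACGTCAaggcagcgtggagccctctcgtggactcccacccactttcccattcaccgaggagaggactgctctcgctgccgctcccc
Ntf3 window: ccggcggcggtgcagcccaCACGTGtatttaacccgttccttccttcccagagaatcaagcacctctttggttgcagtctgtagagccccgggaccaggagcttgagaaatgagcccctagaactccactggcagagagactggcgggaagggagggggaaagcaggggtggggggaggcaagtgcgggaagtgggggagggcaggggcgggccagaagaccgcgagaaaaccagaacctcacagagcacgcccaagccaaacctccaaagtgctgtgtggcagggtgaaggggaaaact
Among all 32851 RefSeq windows, 0.441% held TCACGTCA and 7.15% held CACGTG. TGACGTCA was in 1.79% of all windows and in 0 of the 11. These matches describe letters only; the counts do not show which Bdnf or Ntf3 promoter was in use.

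Total counts ran from 4370732 to 8504337 in EXC libraries, 1548907 to 4653119 in PV, 5508099 to 15978459 in SST and 4528457 to 7755954 in VIP. Mitochondrially encoded genes took 14.4% to 52.9% of the counts in PV and at most 16.6% elsewhere; leaving them out changed no call for the 5 genes. The labelled subtypes held the markers of their names: Pvalb averaged 201 CPM in PV, Sst 1158 in SST, Vip 1727 in VIP and Slc17a7, the vesicular glutamate transporter VGLUT1, 532 in EXC, each highest there. CPM are counts scaled to a common library size, after TMM adjustment. EXC also carried dentate granule cell markers, described beside the ligands below. The labels place 5 EXC and all 6 PV libraries in sequencing pool POOL6188, 5 SST and 2 VIP libraries in POOL7098, 4 VIP libraries and EXC replicate 3 in POOL7099, and SST replicate 5 in POOL7100. PV shares no pool with SST or VIP, and SST shares none with EXC. VIP and EXC share POOL7099 with a single EXC library, so tests within a pool were made for PV against EXC and for SST against VIP.

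The first comparison was of the ligand genes between subtypes. Bdnf was far higher in EXC than in the other subtypes, with SST second and PV and VIP near the detection limit. Normalised Bdnf levels in EXC had a lowest value of 53.6, a median of 67.5 and a highest of 135 CPM. In SST they were 4.20, 5.56 and 14.8 CPM, in PV 0, 0.562 and 3.22, and in VIP 0, 0.322 and 2.58. No EXC library overlapped any other library, every SST library lay above every PV and VIP library, and PV and VIP overlapped. Bdnf fell from a mean of 78.1 ± 29.9 CPM in EXC (SD, n = 6, as for all means below) to 7.04 ± 3.90 in SST, a log2 fold change of -3.46 ± 0.43 (SE; edgeR quasi-likelihood adjusted p = 3.61e-07). Against EXC the log2 change was -6.69 ± 0.62 in PV (edgeR adjusted p = 1.32e-09) and -6.97 ± 0.56 in VIP (9.19e-11). SST was higher than VIP by 3.51 ± 0.53 (edgeR adjusted p = 1.27e-05), and PV was lower than SST by a log2 change of -3.23 ± 0.65 (0.000442). The difference of PV from VIP was 0.28 ± 0.86 on the log2 scale and did not pass (edgeR adjusted p = 0.806). It moved to 1.48 without VIP replicate 5 and to -0.16 without PV replicate 6, and passed in none of the fits without 1 library (edgeR adjusted p from 0.139 to 0.994). In bulk samples, fewer expressing cells and less RNA per cell cannot be told apart. Slc17a7 averaged 532 CPM in EXC, 42.5 in SST, 19.5 in PV and 7.43 in VIP. Of 8 excitatory neuron markers, 7 were higher in SST than in VIP (14.6% of all genes) and 0 lower. Against PV, 2 were higher in SST (14.9%) and 0 lower. Their summed level had a median of 522 CPM in SST, 457 in PV and 452 in VIP. The part of excitatory neuron RNA in the SST level of Bdnf was not tested.

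Because PV and VIP held few Bdnf reads, reads were also summed. PV had 10 Bdnf reads over its 6 libraries and VIP 23, against 577 in SST and 3397 in EXC. Per normalised read, EXC exceeded PV 111-fold (95% counting interval 60.4 to 232), VIP 136-fold (90.3 to 214) and SST 10.7-fold (9.84 to 11.8). SST exceeded VIP 12.6-fold (8.33 to 20.1). These intervals cover counting error only. VIP replicate 5 held the highest VIP value, and without it the VIP change from EXC was -8.26 and SST exceeded VIP by 4.78 on the log2 scale.

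Ntf3 was the scarcer ligand and was again highest in EXC. Its lowest, median and highest levels in EXC were 3.04, 7.0002 and 10.9 CPM. PV held 0, 0.888 and 2.24 CPM and SST held 0.247, 0.589 and 1.07, while in VIP 5 libraries were at 0 and replicate 6 had 1 read. No EXC library overlapped a library of another subtype, PV and SST overlapped, and every SST library was above every VIP library. EXC averaged 6.99 ± 2.67 CPM, and against it Ntf3 fell by 2.82 ± 0.60 in PV (edgeR adjusted p = 0.000392) and fell by 3.49 ± 0.55 in SST (1.23e-05) on the log2 scale. PV and SST differed by 0.67 ± 0.63 (edgeR adjusted p = 0.480), which did not pass. Against VIP the test passed for EXC (edgeR adjusted p = 3.29e-08), PV (0.000300) and SST (0.00140). With 1 read in VIP, the sizes rest on counting: EXC exceeded VIP 275-fold (95% counting interval 48.9 to 10887), PV 39.3-fold (5.98 to 1662) and SST 23.7-fold (4.04 to 954). The whole of the VIP signal is VIP replicate 6, without which the fitted change against EXC was -8.57, that of PV against VIP 5.76 and that of SST against VIP 5.12.

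**Figure D1:**
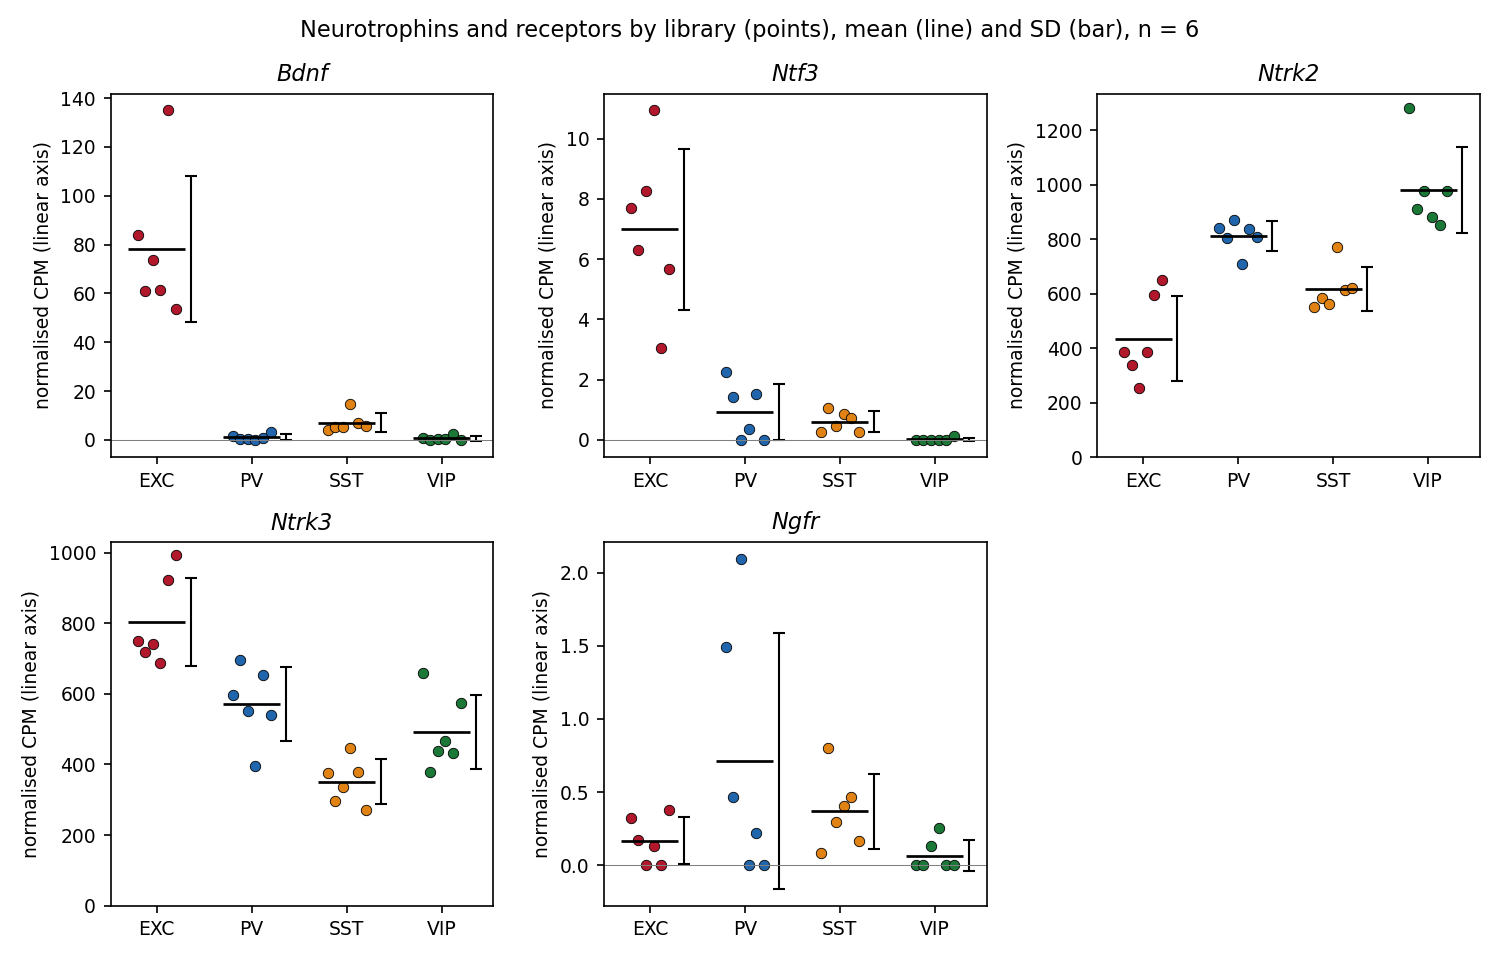
Normalised CPM (vertical, linear axes that differ between panels) of Bdnf, Ntf3, Ntrk2, Ntrk3 and Ngfr in each of the 24 libraries; points are libraries, lines are means and bars are the SD of 6 libraries. The EXC points of Bdnf (53.6 to 135) and Ntf3 (3.04 to 10.9) stand above all others, while on average Ntrk2 is lowest and Ntrk3 highest in EXC.

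Markers of another glutamatergic cell type were, like both ligands, highest in EXC. The summed level of 5 dentate granule cell markers (Prox1 left out, since VIP also carries it) ran from 277 to 613 CPM in EXC and reached at most 8.59 CPM in any other library. With Prox1 included, 6 of 6 were lower in PV and in SST than in EXC (25.6% and 21.3% of all genes). In VIP 5 of 6 were lower (20.7%). C1ql2, a synaptic organiser that marks dentate granule cells, averaged 63.8 ± 17.5 CPM in EXC and at most 0.0699 in the other subtypes. Within EXC, the library highest in Bdnf, replicate 5, had a dentate sum of 533.5 CPM and the lowest Ntf3, 3.04 CPM. The library lowest in the dentate sum, replicate 3, had 73.8 CPM of Bdnf and 8.25 of Ntf3. It also had the lowest excitatory neuron marker sum of EXC, 1884 CPM, and the highest GABA neuron marker sum, 889. The part of dentate granule cells in the ligand levels was not tested.

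Among pools, the PV changes from EXC within POOL6188 were -6.69 ± 0.46 for Bdnf (edgeR adjusted p = 4.11e-09) and -2.77 ± 0.63 for Ntf3 (0.00173). Within POOL7098 SST exceeded VIP in Bdnf by 4.28 ± 0.66 (edgeR adjusted p = 0.000182), and Ntf3 was too low there to be tested. With pool as a covariate, the change of SST from EXC was -2.62 for Bdnf (edgeR adjusted p = 0.210) and -2.08 for Ntf3 (0.875), and neither passed. The Bdnf change of PV from SST, -4.11, did not pass either (edgeR adjusted p = 0.0618). These subtypes share no pool, so their contrast then rests on the few libraries that link pools.

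The receptors were compared next. Ntrk2 was lowest in EXC, where both ligands were highest, and highest in VIP. The lowest, median and highest Ntrk2 levels were 253, 386 and 650 CPM in EXC, 552, 600 and 773 in SST, 710, 823 and 869 in PV, and 850, 943 and 1283 in VIP. EXC overlapped SST in its upper range and lay below every PV and VIP library; SST overlapped PV, PV overlapped VIP, and SST did not overlap VIP. Means were 435 ± 155 CPM in EXC, 618 ± 80.7 in SST, 812 ± 55.1 in PV and 980 ± 157 in VIP. Against EXC, Ntrk2 was higher by 0.91 ± 0.18 in PV (edgeR adjusted p = 0.000142), 1.19 ± 0.18 in VIP (6.45e-06) and 0.51 ± 0.17 in SST (0.0217) on the log2 scale. SST was below VIP, with a log2 change of -0.68 ± 0.18 (edgeR adjusted p = 0.00469).

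Neighbouring steps of the Ntrk2 order were less firm. PV and SST differed by 0.40 ± 0.17 (edgeR adjusted p = 0.0931) and PV and VIP by -0.28 ± 0.17 (0.193), and neither passed. The SST difference from EXC was lost without SST replicate 4 (0.43, edgeR adjusted p = 0.0599) and with only the 2 groups compared (0.50, 0.0791). The PV difference from SST passed with upper-quartile scaling (0.46, edgeR adjusted p = 0.0418). It also passed with a filter of 5 CPM in 6 libraries (0.46, edgeR adjusted p = 0.0436) and with only the 2 groups compared (0.38, 0.00715). With pool as a covariate PV lay below VIP, by a log2 change of -1.08 (edgeR adjusted p = 0.0319).

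Ntrk3, in contrast, was highest in EXC and lowest in SST. Its lowest, median and highest levels were 689, 745 and 994 CPM in EXC, 396, 573 and 696 in PV, 380, 452 and 659 in VIP, and 271, 356 and 447 in SST. EXC overlapped PV by a single PV library (replicate 2) and overlapped neither VIP nor SST, while PV, VIP and SST overlapped one another. Means were 802 ± 125 CPM in EXC, 572 ± 105 in PV, 492 ± 105 in VIP and 351 ± 63.4 in SST. On the log2 scale Ntrk3 fell by 1.19 ± 0.16 in SST (edgeR adjusted p = 1.38e-06), 0.68 ± 0.16 in VIP (0.00152) and 0.47 ± 0.16 in PV (0.0181) from EXC. SST was also below PV, which was higher by 0.72 ± 0.16 (edgeR adjusted p = 0.00132), and below VIP by a log2 change of -0.51 ± 0.16 (0.0185). PV and VIP differed by 0.21 ± 0.16, which did not pass (edgeR adjusted p = 0.290).

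The smaller Ntrk3 differences depended on single libraries. That of PV from EXC was -0.40 without EXC replicate 6 (edgeR adjusted p = 0.0536) and -0.36 without PV replicate 4 (0.0692), and neither passed. That of SST from VIP was -0.44 without SST replicate 6 (edgeR adjusted p = 0.0615) and -0.39 without VIP replicate 1 (0.0955). With pool as a covariate neither VIP against EXC (-0.63, edgeR adjusted p = 0.136) nor PV against SST (0.79, 0.172) passed. Within POOL6188 PV differed from EXC by 0.84 ± 0.16 for Ntrk2 (edgeR adjusted p = 0.000381) and -0.49 ± 0.15 for Ntrk3 (0.0115). Within POOL7098 SST differed from VIP by -0.79 ± 0.20 for Ntrk2 (edgeR adjusted p = 0.00715), and by -0.58 ± 0.23 for Ntrk3, which did not pass (0.0579).

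**Figure D2:**
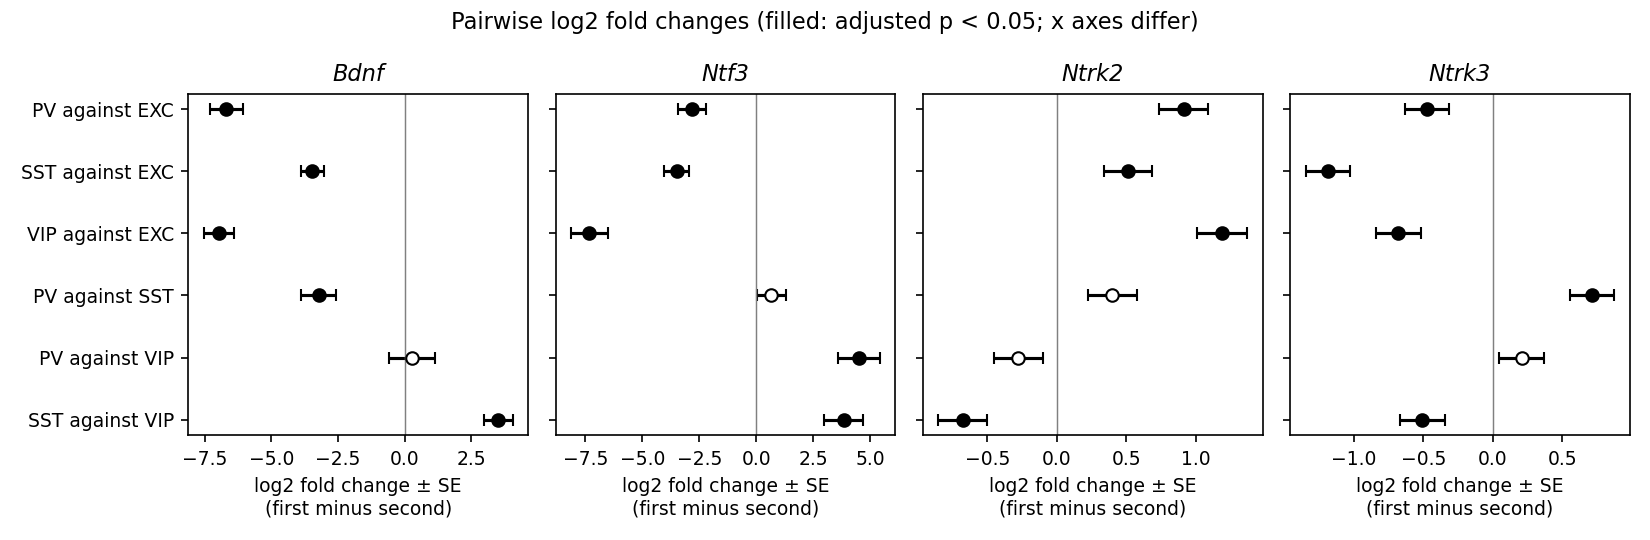
Log2 fold changes (horizontal, first subtype minus second, with the SE as bar; axes differ between genes) of Bdnf, Ntf3, Ntrk2 and Ntrk3 for the 6 pairs of subtypes; filled points have an edgeR adjusted p under 0.05. Against EXC all 3 other subtypes lie to the left for Bdnf, Ntf3 and Ntrk3 and to the right for Ntrk2, which runs from 0.51 in SST to 1.19 in VIP.

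Counted over the 4 tested genes, all 4 passed for PV against EXC, 1 higher and 3 lower in PV, where 45.9% of all 14890 genes tested passed, 20.3% higher in PV and 25.6% higher in EXC. All 4 also passed, in the same directions, for SST against EXC (38.4% of all genes, 17.1% higher in SST and 21.3% in EXC) and for VIP against EXC (39.1%, 18.4% higher in VIP and 20.7% in EXC). For SST against VIP all 4 passed, 2 in each direction (31.3% of all genes, 14.6% higher in SST and 16.7% in VIP). For PV against SST 2 passed (26.3%, 11.4% higher in PV and 14.9% in SST) and for PV against VIP 1 (48.6%, 21.9% higher in PV and 26.7% in VIP). The median log2 change of all genes was -0.12 for PV against EXC, -0.06 for SST and 0.01 for VIP. The comparisons against EXC share the EXC libraries.

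Astrocyte and oligodendrocyte markers are given beside Ntrk2, since astrocytes express it. The summed level of 9 astrocyte markers ran from 15.7 to 480 CPM in EXC libraries, 101 to 236 in PV, 21.9 to 45.4 in SST and 47.2 to 146 in VIP. Of the 9, 0 passed the test between PV and EXC, where 45.9% of all genes passed. Against EXC, 6 were lower in SST and 5 in VIP (21.3% and 20.7% of all genes). PV had 6 higher than SST and 4 higher than VIP (11.4% and 21.9%), and 0 lower than either. Aqp4, the astrocyte water channel, averaged 18.3 ± 28.6 CPM in EXC libraries, 41.6 ± 22.9 in PV, 2.36 ± 0.765 in SST and 3.33 ± 3.32 in VIP. Replicate 6 of EXC, highest of its subtype for Ntrk2 at 650 CPM, had the astrocyte sum of 480, while replicate 5 with 596 CPM had a sum of 43.2. VIP replicate 1, highest of all for Ntrk2 at 1283 CPM, had the lowest astrocyte sum of its subtype, 47.2. EXC replicates 2 and 6 also held 2987 and 2970 CPM of oligodendrocyte markers; without both, the calls for Ntrk2 stood and PV against EXC was lost for Ntrk3 (-0.43, edgeR adjusted p = 0.0622). Some genes listed as markers of other cells were, like Ntrk2, highest on average in VIP. Pdgfra, a receptor that marks oligodendrocyte precursors, averaged 16.2 ± 2.69 CPM in VIP and at most 0.928 in the other subtypes, and was the 1 gene of the 5 precursor markers that passed the filter. The summed level of 5 genes listed as basal forebrain cholinergic markers ran from 128 to 216 CPM in VIP and reached at most 9.06 in any other library. Of the 4 tested, 3 were higher in VIP than in EXC and 0 lower (18.4% and 20.7% of all genes). Against SST, 3 were higher in VIP and 1 was higher in SST (16.7% and 14.6%). Chat, which makes acetylcholine, averaged 15.5 ± 4.58 CPM in VIP. The summed level of 6 choroid plexus and ependymal markers ran from 21.2 to 121 CPM in PV and 22.3 to 62.0 in EXC. It ran from 5.42 to 9.15 in SST and 0.933 to 11.4 in VIP. Of the 5 tested, PV had 3 higher and 1 lower than EXC (20.3% and 25.6% of all genes). PV had 4 higher and 1 lower than SST (11.4% and 14.9%), and 3 higher and 0 lower than VIP (21.9% and 26.7%). The levels do not show which cells carried these genes. The part of other cells and of glial RNA in the Ntrk2 levels was not tested.

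**Figure D3:**
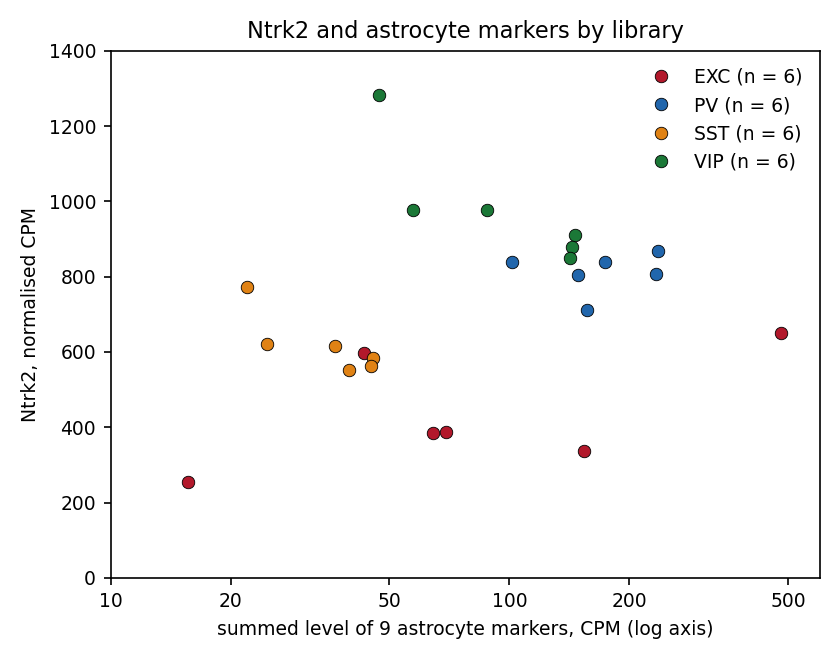
Ntrk2 level (vertical, normalised CPM) against the summed level of 9 astrocyte markers (horizontal, log axis, CPM) in the 24 libraries, coloured by subtype. VIP libraries, with sums of 47.2 to 146, are highest in Ntrk2 on average and overlap PV. The EXC library with the highest sum, 480, lies at 650 CPM of Ntrk2.

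Levels of different genes were compared per length, in the authors' RPKM. In EXC the mean levels were 26.9 RPKM for Ntrk3, 12.6 for Ntrk2, 6.92 for Bdnf, 2.02 for Ntf3 and 0.0287 for Ngfr. In PV, SST and VIP Ntrk2 stood above Ntrk3 instead, at 23.4, 17.6 and 29.3 RPKM against 18.8, 11.4 and 16.9. The ratio of Ntrk2 to Ntrk3 within a library, a measure chosen after the data were seen, ran from 0.299 to 0.571 in EXC libraries, 1.01 to 1.57 in PV, 1.28 to 1.997 in SST and 1.48 to 2.09 in VIP. The EXC range did not overlap the others, and the other 3 ranges overlapped. Means were 0.464 ± 0.103 in EXC libraries, 1.27 ± 0.196 in PV, 1.56 ± 0.255 in SST and 1.76 ± 0.222 in VIP. Because the ratio was chosen for the pattern seen in both genes, it is described here with no test. Within POOL6188 the ratio ran from 0.409 to 0.571 in 5 EXC libraries and from 1.01 to 1.57 in 6 PV libraries, and in POOL7098 the SST and VIP ranges overlapped. In POOL7099 the single EXC library was at 0.299 and the 4 VIP libraries at 1.48 to 2.09. That EXC library, replicate 3, had the lowest excitatory neuron marker sum of EXC, 1884 CPM, and the highest GABA neuron marker sum, 889. A ratio within a library does not depend on its scaling; that Ntrk2 exceeds Ntrk3 depends on the gene lengths the authors used, while differences of the ratio between subtypes do not.

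**Figure D4:**
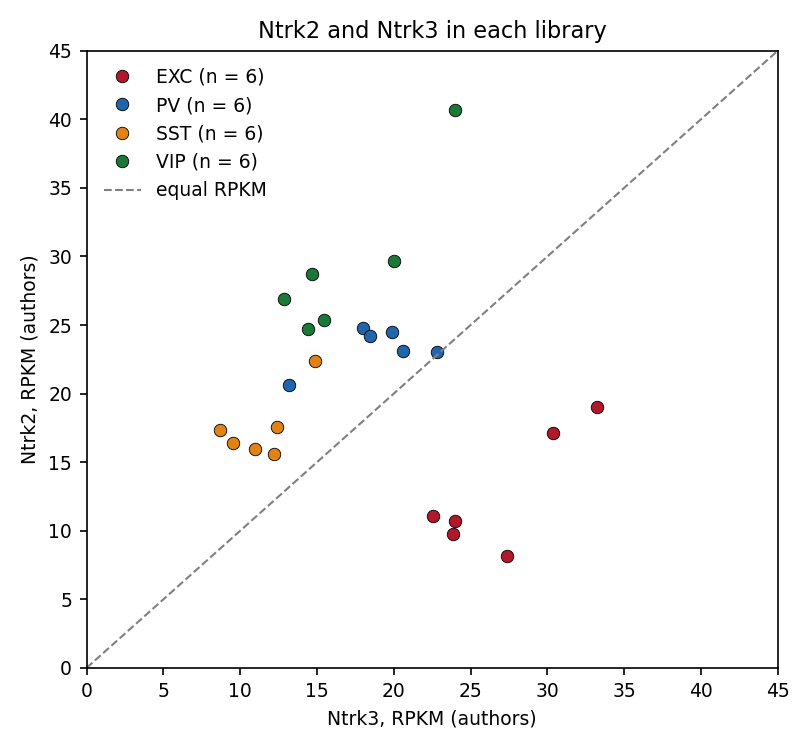
Ntrk2 (vertical) against Ntrk3 (horizontal), both in the authors' RPKM, in each library; the dashed line marks equal values. The 6 EXC libraries lie below the line, with ratios of 0.299 to 0.571, and the other 18 lie above it, with ratios from 1.01 to 2.09.

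Ngfr, the gene of p75NTR, was near the detection limit in every subtype and did not pass the filter. Over all 24 libraries it had 48 reads, 8 in EXC libraries, 9 in PV, 28 in SST and 3 in VIP, and 16 libraries had any. Levels ran from 0 to 0.378 CPM in EXC libraries, 0 to 2.10 in PV, 0.0824 to 0.800 in SST and 0 to 0.251 in VIP, and all subtypes overlapped. Only SST had a read in each of its 6 libraries. By summed normalised reads PV exceeded EXC 3.44-fold (95% counting interval 1.18 to 10.2) and VIP 8.42-fold (2.10 to 48.4), and SST exceeded VIP 4.70-fold (1.45 to 24.1). In a fit without the filter, only PV against VIP passed (edgeR adjusted p = 0.0477) and the other pairs lay between 0.163 and 0.817.

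Of the other ligand genes of the family, Ntf5, the neurotrophin-4 gene, had 11 reads over all 24 libraries.

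Genes of the pathway were counted by their known role. Of the 8 co-receptors and partners of p75NTR and proneurotrophins, all 8 were lower in PV than in EXC, where 25.6% of all genes were, with a median log2 change of -2.02. Against EXC, SST had 1 higher and 6 lower (17.1% and 21.3% of all genes), and VIP 3 higher and 5 lower (18.4% and 20.7%). Sort1, the proneurotrophin receptor sortilin, fell from 562 ± 133 CPM in EXC to 234 ± 29.3 in PV, 200.01 ± 28.5 in SST and 134 ± 21.1 in VIP (edgeR adjusted p = 3.25e-07, 3.39e-08 and 8.99e-11); with pool as a covariate its SST change from EXC was -0.28 (0.495). Rtn4r, the Nogo receptor that partners p75NTR, fell by 5.02 ± 0.46 in PV from 41.7 ± 13.6 CPM in EXC (edgeR adjusted p = 9.48e-10). Sorcs3 and Sorcs1, sortilin relatives that are known to take part in TrkB sorting, were highest in VIP, at 257 ± 14.3 and 206 ± 25.7 CPM, and rose by 2.27 ± 0.31 (edgeR adjusted p = 1.45e-06) and 3.81 ± 0.29 (4.12e-11) from EXC. PV had the lowest levels of both, 2.68 ± 4.24 and 4.88 ± 4.30 CPM.

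Of 14 genes that cut or release neurotrophin precursors 12 were tested, and PV had 2 higher and 5 lower than EXC, with a median change of -1.34. Among all genes 20.3% were higher and 25.6% lower in PV than in EXC. Cadps2, a vesicle priming factor known to promote BDNF release, averaged 121 ± 55.3 CPM in EXC and 6.10 ± 3.43 in PV (-4.47 ± 0.37, edgeR adjusted p = 2.05e-10). Pcsk1, a proprotein convertase of the regulated secretory pathway, was highest in VIP at 164 ± 57.6 CPM and lowest in PV at 9.53 ± 6.84. Pcsk5, another convertase, fell by 3.57 ± 0.39 in PV from 35.7 ± 6.01 CPM in EXC (edgeR adjusted p = 2.30e-08).

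Downstream of the receptors the lists were mixed. Of 20 adaptors and substrates of Trk receptors, PV had 3 higher and 4 lower than EXC, both at or below the shares of all genes (20.3% and 25.6%). Without EXC replicates 2 and 6 these counts were 4 and 0. Pik3r1, a regulatory subunit of PI3 kinase, rose by 1.04 ± 0.12 in VIP from EXC (edgeR adjusted p = 1.53e-07), to 234 ± 22.7 CPM. Irs1, an insulin receptor substrate, was higher in VIP (63.7 ± 8.56 CPM) than in SST (25.9 ± 2.79). Gab1, a docking protein, averaged 16.3 ± 22.1 CPM in EXC, and its SST change from EXC moved from -1.61 to -0.52 without EXC replicate 6 (edgeR adjusted p = 0.402).

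Of 20 genes of the kinase cascades, PV had 4 higher and 9 lower than EXC and VIP 1 higher and 9 lower. The higher count in PV was near the share of all genes, 20.3%, while 25.6% of all genes were lower in PV, and in VIP 18.4% were higher and 20.7% lower. Map2k1, the kinase MEK1, fell by 2.25 ± 0.14 in PV (edgeR adjusted p = 6.51e-13) and 1.86 ± 0.14 in VIP (1.73e-11) from 287 ± 44.2 CPM in EXC. Crtc1, a CREB coactivator, fell by 2.36 ± 0.20 in PV (edgeR adjusted p = 2.38e-10). Of 12 intracellular partners of p75NTR 11 were tested, and PV had 1 higher and 3 lower than EXC; the lower count was near the 25.6% of all genes, and 20.3% of all genes were higher. Traf6, a ubiquitin ligase, rose by 1.23 ± 0.17 in VIP (edgeR adjusted p = 1.76e-06), Bex1, which is known to bind p75NTR, rose by 1.52 ± 0.25 in SST (2.47e-05), and Irak1, a signalling kinase, averaged 28.1 ± 3.31 CPM in VIP and 14.2 ± 3.16 in SST.

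Of 18 modulators of Trk signalling, PV had 4 higher and 10 lower than EXC, where 20.3% of all genes were higher, near the share of the list, and 25.6% lower. Spry4, a feedback inhibitor of receptor tyrosine kinase signalling, rose in all 3 other subtypes, by 3.32 ± 0.35 in PV (edgeR adjusted p = 1.57e-08), 2.70 ± 0.34 in SST (4.60e-07) and 3.48 ± 0.35 in VIP (6.88e-09). Dusp4, a phosphatase of MAP kinases, fell by 2.75 ± 0.50 in PV (edgeR adjusted p = 5.46e-05). Adora2a, an adenosine receptor known to transactivate TrkB, reached 26.5 ± 19.5 CPM in SST and at most 1.07 on average elsewhere. Its level ran from 4.15 to 55.0 CPM across the SST libraries, and which cells carried it was not tested. Of 13 activity-regulated genes 0 were higher and 11 lower in PV than in EXC, with a median change of -2.67, where 25.6% of all genes were lower. Egr3 fell by 4.88 ± 0.44 in PV (edgeR adjusted p = 7.41e-10), Arc by 3.94 ± 0.61 (7.46e-06) and Npas4, a transcription factor induced by activity that acts on Bdnf, by 2.98 ± 0.51 (2.95e-05). Npas4 was highest on average in VIP, at 36.7 ± 24.3 CPM, where Bdnf averaged 0.654 ± 0.963. Against EXC, VIP had 2 of the 13 higher and 7 lower (18.4% and 20.7% of all genes). With pool as a covariate, SST had 0 higher and 1 lower than EXC of the 8 co-receptors. In that fit VIP had 2 higher and 3 lower than EXC of the 20 kinase cascade genes. Of the 13 activity-regulated genes VIP then had 2 higher and 1 lower. Fewer of all genes also passed in that fit for VIP against EXC. Its shares of all genes are not given here, so the counts from that fit are not read as particular to the lists.

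**Figure D5:**
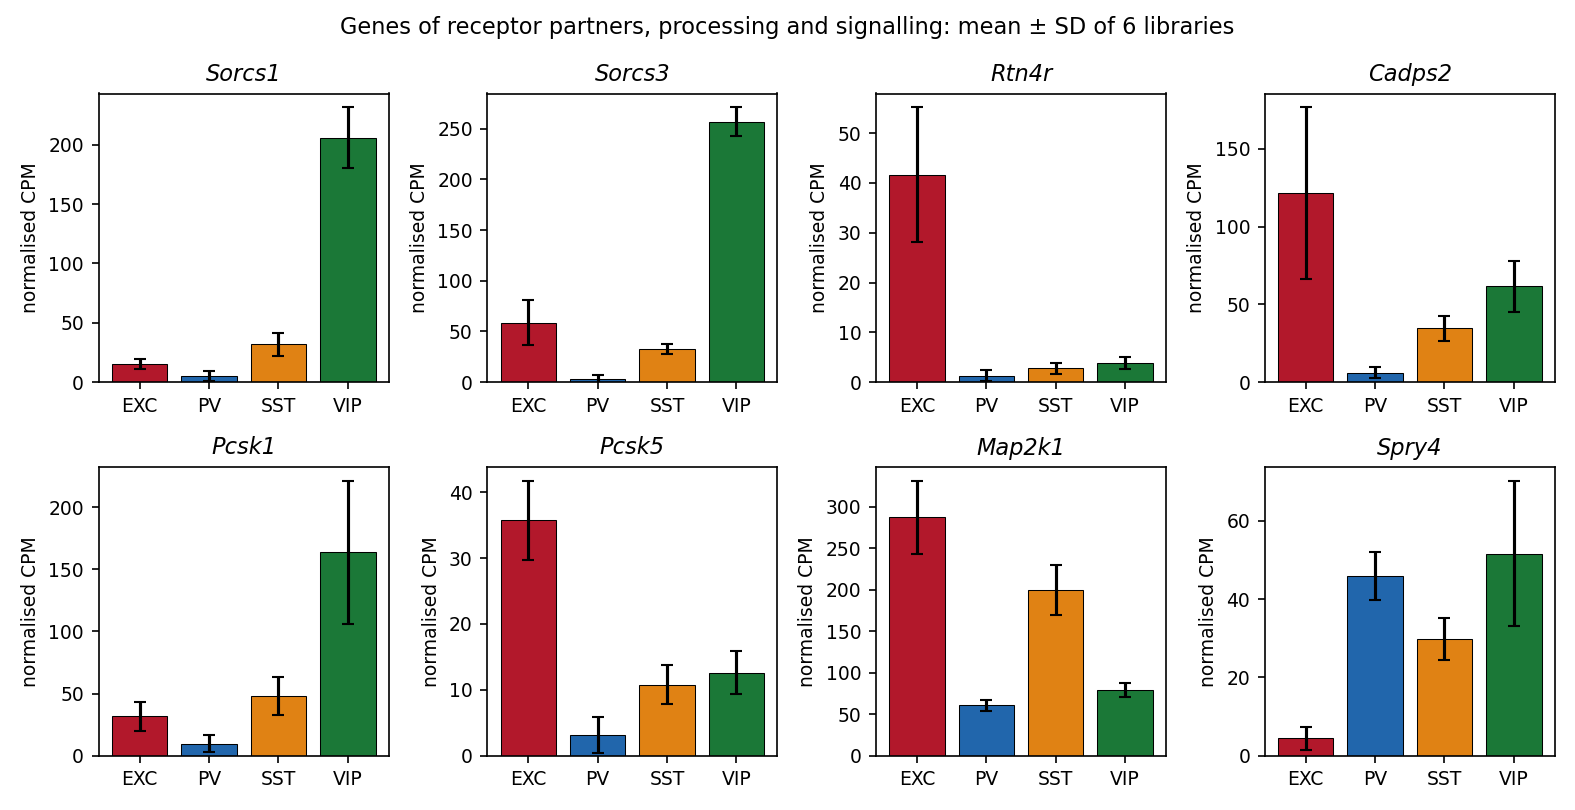
Mean normalised CPM (vertical, from 0) with the SD of 6 libraries as bars for 8 of the named pathway genes in each subtype. Sorcs1, Sorcs3 and Pcsk1 are highest in VIP (206, 257 and 164 CPM), Rtn4r, Cadps2, Pcsk5 and Map2k1 in EXC, and Spry4 is lowest in EXC (4.50 CPM).

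The genes whose levels ran most like those of each member were ranked by Pearson correlation on log2 CPM over the 24 libraries, which share subtype, pool and depth, so the values describe and carry no test. For Bdnf they were Ipcef1 (r = 0.960), Ppp3ca (0.958), the catalytic subunit of calcineurin, and Tafa1 (0.956). For Ntf3 they were Ahcyl2 (0.907), Upf2 (0.903) and Grin2a (0.896), an NMDA receptor subunit. For Ntrk2 they were Plcxd2 (0.897), Fam149a (0.892) and Gfpt2 (0.892), and for Ntrk3 Aff1 (0.894), Plxna4 (0.893), a semaphorin receptor, and Pds5a (0.892). Between members, Bdnf and Ntf3 ran together (r = 0.79) and Bdnf and Ntrk2 opposite (-0.79), while Ntrk2 and Ntrk3 had r = -0.21.

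The sexes were compared with subtype in the model. None of the 4 tested members passed the test between female and male libraries (edgeR adjusted p = 1.00 for each of the 4; 0.0403% of all genes passed, 6 genes). The log2 female minus male difference was -0.003 for Bdnf, -0.16 for Ntf3, -0.04 for Ntrk2 and -0.08 for Ntrk3. Subtype by sex gave 0 genes by edgeR, with 319 at an unadjusted p under 0.05, and Bdnf was among these (unadjusted p = 0.00581, adjusted 1.00). Bdnf in SST was 5.77 and 14.8 CPM in the 2 female libraries and 4.20 to 6.98 in the 4 male ones.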

How the data were processed

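Bulk RNA-seq of 24 libraries was analysed from 1 count file per library. Per the submitters' processing notes the authors aligned reads with GSNAP to GRCm38; versions, annotation, counting program and strand setting were not given in the sources used here. The deposited counts are, per the file headers, numbers of uniquely aligning reads per gene model, and a further deposited column holds the authors' RPKM adjusted by size factors. The RPKM values served only for levels between genes and for the Ntrk2 to Ntrk3 ratio. Of 36528 genes 31126 had a symbol (31049 by RefSeq, 77 more by GENCODE M21). Groups came from the subtype label, and replicates were numbered in accession order.

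Counts were filtered with filterByExpr, scaled by TMM and fitted over all 24 libraries with subtype and sex in edgeR 4.0.16 (R 4.3.3). Quasi-likelihood tests were adjusted by Benjamini-Hochberg over 14890 genes and called at 0.05; the code was tested on simulated data. SE is the change divided by the root of F. DESeq2 1.42.0 and other settings were tried as alternatives. Summed reads have exact 95% counting intervals, and a count of 0 allows 3 reads. At most 3 genes per pathway list are named, those with the largest called change and at least 10 CPM. Some genes that this rule names are not reported here. Total counts of 1548907 to 15978459 a library limit the precision of low genes. The members, the lists and the rules were chosen with earlier results of these data known.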

Additional observations from a re-analysis of the deposited data

Results flagged for a closer look

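In 24 groups of 6 libraries (the 5 genes and the Ntrk2 to Ntrk3 ratio, each in 4 subtypes), 6 single values lay apart from the other 5 by more than 0.625 of their group's range. For normally distributed values chance alone flags about 1 in 20 groups. Levels that rest on a few reads are not so distributed, and 1 read beside 5 values of 0 is always flagged. The 6 flags are therefore not weighed against that rate. Bdnf was at 135.1 CPM in EXC replicate 5 (next 83.7), at 14.8 in SST replicate 4 (next 6.98) and at 2.58 in VIP replicate 5 (next 0.583). Ntf3 was at 0.120 CPM, 1 read, in VIP replicate 6 and at 0 in the other 5. Ntrk2 was at 772.7 CPM in SST replicate 4 (next 621) and at 1283 in VIP replicate 1 (next 978). SST replicate 4 thus stood apart for both Bdnf and Ntrk2.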

How the results depend on the processing

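Over the 24 member results (6 pairs of subtypes for 4 genes) 861 values were computed under the alternatives, of which 838 kept their direction and side of the threshold, 14 lost the call, 4 gained it and 5 changed sign. Those that changed sign were of results that did not pass, before or after: with pool as a covariate Ntf3 (-0.71) and Ntrk2 (-0.21) for PV against SST and Bdnf (-0.015) for PV against VIP, and Bdnf for PV against VIP without 1 library (-0.16 to 1.48 over such fits). The sex difference of Bdnf, near 0, turned positive without mitochondrial genes (0.0010), without the filter (0.033), with pool as a covariate (0.031), without the 2 libraries alone in their pool (0.017) and without EXC replicates 2 and 6 (0.048, where Ntrk2 was at 0.041). Without 1 library it ran from -0.41 to 0.33 for Bdnf and -0.10 to 0.019 for Ntrk2. With pool as a covariate, the members called fell from 4 to 2 for SST against EXC and from 2 to 0 for PV against SST and rose from 1 to 2 for PV against VIP, and the genes called fell from 5821 to 3714 for VIP against EXC and from 7242 to 2341 for PV against VIP. For PV against VIP the members called were 0 with a filter of 5 CPM in 6 libraries, 0 with only the 2 groups compared and 2 with no filter. Within POOL7098, 2 members passed for SST against VIP. For the other pairs and settings the share of all genes called in the same fit is not given here. The counts of members called are therefore not read as particular to the 5 genes. The cause of these shifts in calls was not tested, except that Ntf3 is not tested under the 5 CPM filter, with the 2 groups alone or in POOL7098. Low depth limits Ngfr, Ntf3 in VIP and Bdnf in PV and VIP. No paired analysis was possible because the labels give no replicate numbers shared between subtypes.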
